A study of Mus musculus with 8 samples.

Results

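The urokinase plasminogen activator system and the matrix metalloproteinases, with the tissue inhibitors that hold the metalloproteinases in check, were examined in serum-stimulated mouse fibroblasts given cordycepin. The set held 9 genes. Plau encodes urokinase, Plaur its cell surface receptor and Plat tissue plasminogen activator. Mmp2, Mmp3 and Mmp13 encode gelatinase A, stromelysin-1 and collagenase-3, and Timp1, Timp2 and Timp3 encode metalloproteinase inhibitors. Every non-control probe that the array design names for one of these genes was taken, which gave 10 of the 55681 probes on the array. Timp2 had 2 probes and each other gene had 1.

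Plasminogen activators cleave plasminogen to plasmin, a broad protease that dissolves fibrin, degrades matrix proteins and can activate some metalloproteinases. Urokinase works at the cell surface when bound to its receptor. In fibroblasts these genes take part in wound repair and cell migration, and several of them are known targets of growth factors and of AP-1, the Fos and Jun transcription factors.

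The cells were NIH3T3, an immortalised line of mouse embryonic fibroblasts. They were starved for 24 h in 0.5% newborn bovine serum after growth in 10% serum. Cordycepin (3′-deoxyadenosine, a chain-terminating adenosine analogue) was present at 20 µM for 90 min in 3 samples that also received serum for the last 30 min. The serum control comprised 3 samples with the same 30 min of serum and no cordycepin. Both of these groups had 0.1% DMSO as vehicle. The no serum control comprised 2 starved samples, for which the labels do not give whether vehicle was added. No array of cordycepin without serum was analysed here. RNA was measured on 1-colour arrays, so the values describe mRNA and not protease activity.

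A level is given below as the log2 signal of a probe relative to the 75th percentile of its array, so that 0 lies at that percentile. Levels of different probes are not comparable with each other. A difference was called when its adjusted p in limma was under 0.05 (Benjamini-Hochberg, over 30861 tested probes) and its size reached 1 log2 unit. The arrays were similar in detection, with between 51.1% and 57.1% of probes well above background. They differed in brightness: the 75th percentile of processed signal ran from 350 on cordycepin replicate 1 to 802 on no serum replicate 1. Of 12 fibroblast markers, 11 were well above background on each of the 8 arrays, while Fap was below it on each, and their summed signal relative to the 75th percentile was 2592 to 3118 with cordycepin, 2389 to 2632 with serum and 2254 to 2456 without serum. The immediate early genes Fos, Egr1 and Junb were called higher with serum and lower with cordycepin.

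Cordycepin lowered the mRNAs of urokinase and its receptor, and of the 7 genes that could be tested these were the 2 that were called. Both had risen with serum. The Plau probe lies at chr14:21662242-21662301 and the Plaur probe at chr7:25260569-25260628, both on the plus strand of mm9. The Plau level was 0.35, 0.22 and 0.01 with cordycepin, 1.21, 1.51 and 1.07 with serum, and 0.12 and 0.40 without serum. The Plaur level was 2.07, 2.07 and 2.12 with cordycepin, 3.82, 4.20 and 3.41 with serum, and 2.20 and 2.63 without serum. For both genes every serum array lay above every array of the other groups. The Plau arrays with cordycepin overlapped those without serum, whereas for Plaur the 3 arrays with cordycepin lay just under the 2 without serum.

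**Figure D1:**
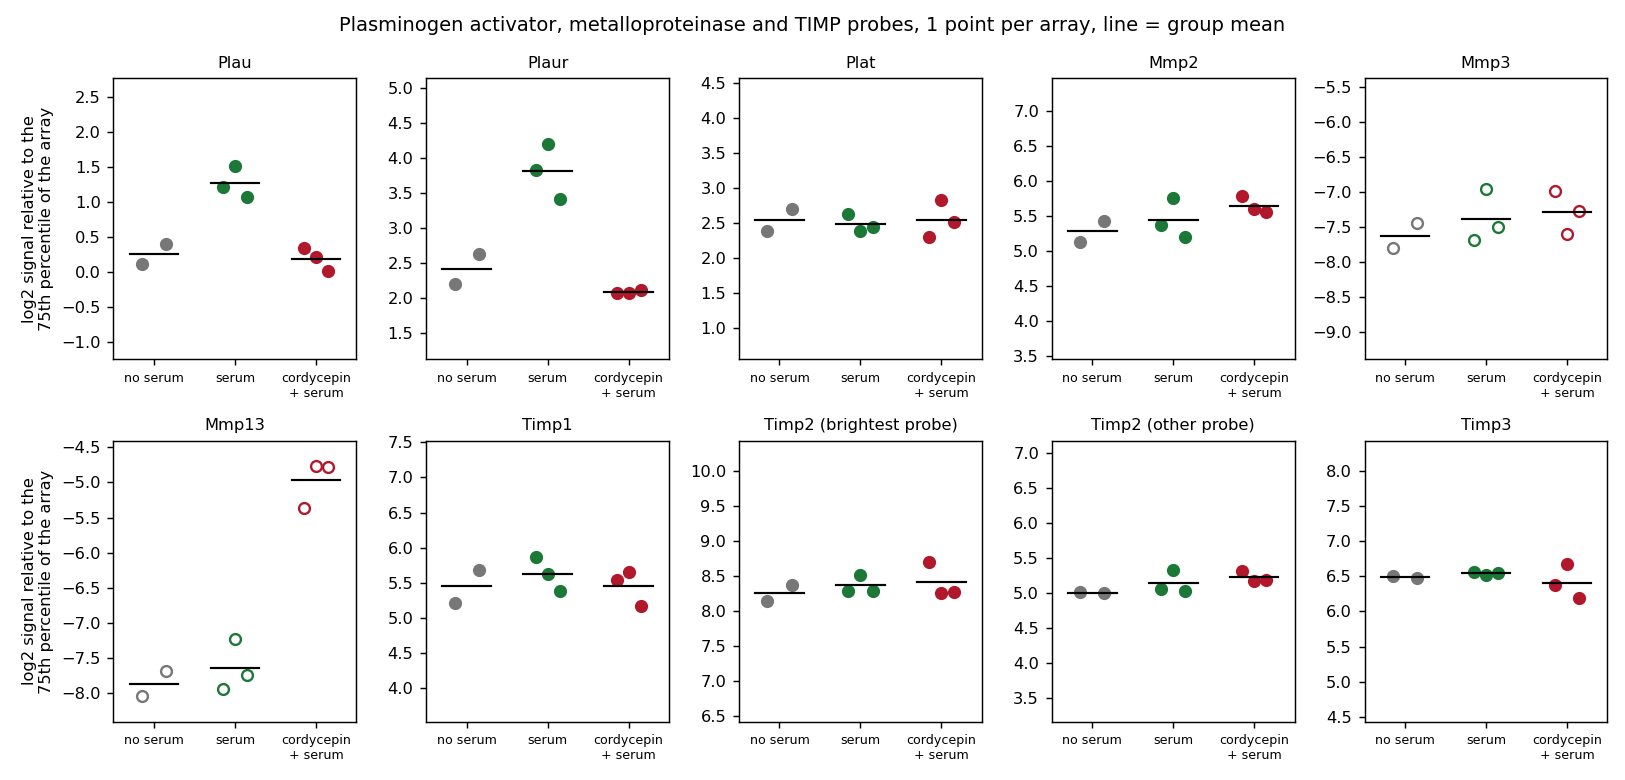
Levels of the 10 probes by array: the y axis of each panel is the log2 signal relative to the 75th percentile of the array, and the x axis is the group (2 arrays without serum, 3 with serum, 3 with cordycepin and serum). Each point is 1 array, the line is the group mean, and open points mark a group in which the probe was not well above background on every array. All panels span the same number of log2 units. Plau and Plaur are highest in the serum group, Mmp13 is highest with cordycepin, and the groups of the other genes lie close together.

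Against serum alone, Plau fell by 1.07 on the log2 scale with cordycepin (SE 0.16, n = 3 and 3), which is a level 2.10-fold lower (limma, adjusted p = 0.00188). Plaur fell by 1.72 (SE 0.21), or 3.30-fold (limma, adjusted p = 0.000622). These 2 genes out of 7 compare with 2.87% of all tested probes called lower in this comparison. None of the 7 was called higher, against 7.63% of all tested probes, and the count of higher genes was also 0 at an unadjusted p under 0.05 in limma. The median log2 fold change of the 7 genes was −0.13, and that of all tested probes was 0.10. Plau lies close to the fold threshold: its log2 fold change was −0.98 without cordycepin replicate 3 (adjusted p = 0.0086 in limma) and −0.95 without serum replicate 2 (adjusted p = 0.00598), so it lost the call in both cases. When arrays were centred on spike-in probes, the Plau difference was −1.14 with an SE of 0.53 and was not called (limma, adjusted p = 0.311). That SE was the same for Plaur and the other tested members in this setting, so it does not describe the scatter of Plau itself.

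Serum had raised the same pair of mRNAs within 30 min. Plau was 2.01-fold higher with serum than without (log2 fold change 1.01, SE 0.18, n = 3 and 2; limma, adjusted p = 0.0284), and Plaur was 2.63-fold higher (1.40, SE 0.23; adjusted p = 0.0217). The 2 called genes of 7 compare with 0.849% of all tested probes called higher with serum. None of the 7 was called lower, against 0.878% of all tested probes, and none was lower at an unadjusted p under 0.05 in limma. The serum effect rests on few arrays: the Plaur call was lost without cordycepin replicate 2 (log2 fold change 1.40, adjusted p = 0.0503), serum replicate 1 (1.39, adjusted p = 0.0658), no serum replicate 1 (1.18, adjusted p = 0.128) or no serum replicate 2 (1.61, adjusted p = 0.0712), all by limma. The Plau call was lost in the same 4 cases, at log2 fold changes of 1.01, 1.03, 0.87 and 1.14 (limma, adjusted p from 0.0594 to 0.160), and without serum replicate 2 (0.88, adjusted p = 0.0638). Where an array of another group matters, it enters through the shared estimate of the spread and the choice of tested probes.

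**Figure D2:**
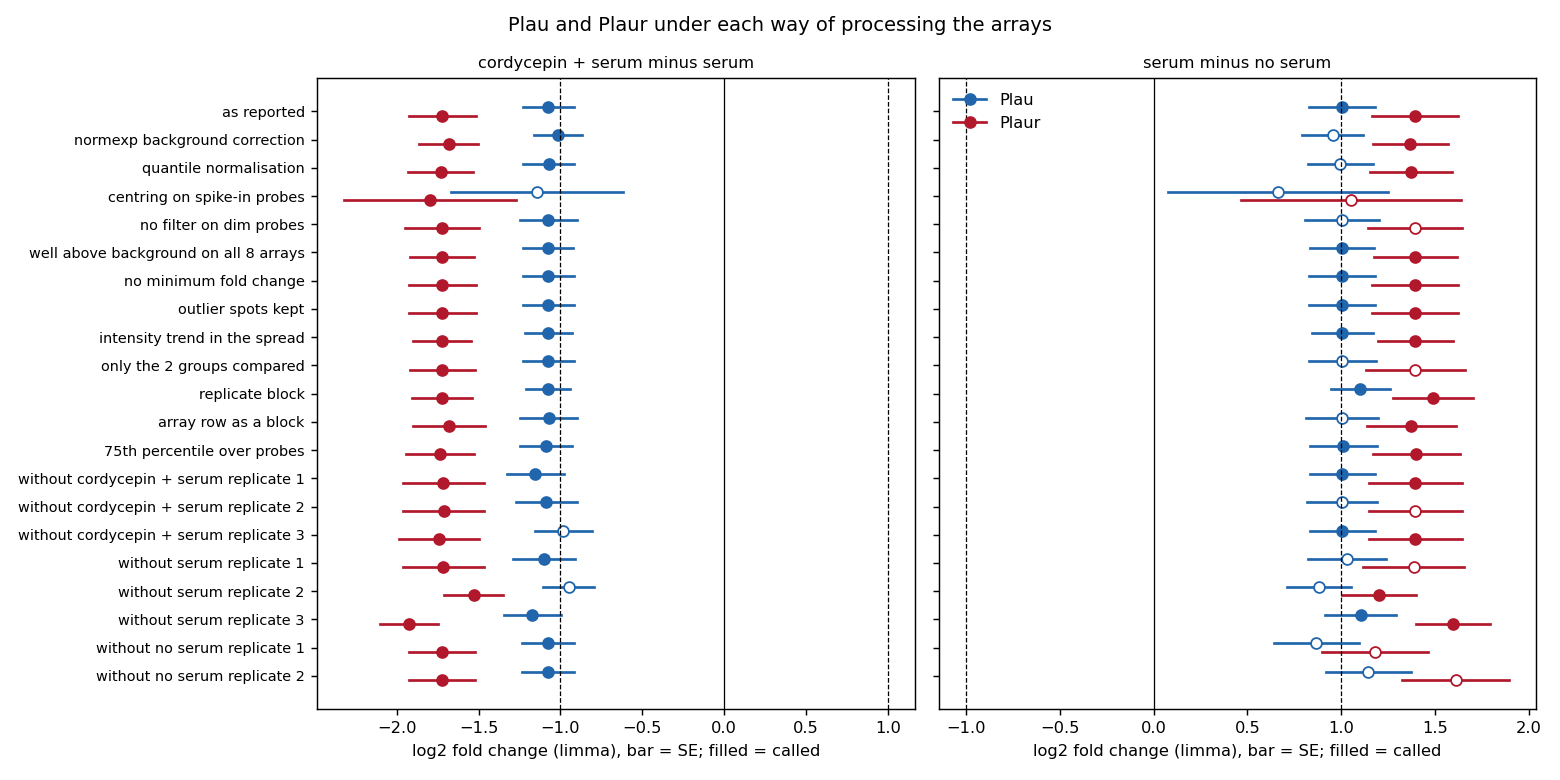
Log2 fold changes (x axis, bar = SE, limma) of Plau (blue) and Plaur (red) under each way of processing the arrays (y axis), for cordycepin against serum and for serum against no serum; filled points were called. Plaur stays called with cordycepin in each of the 20 alternatives, and Plau in 17 of them, while with serum Plau was called in 9 and Plaur in 13 of the 20.

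With cordycepin and serum together, neither mRNA was called different from its level in starved cells. The log2 difference between the cordycepin and no serum groups was −0.07 for Plau (95% interval −0.47 to 0.34; limma, adjusted p = 0.84) and −0.33 for Plaur (95% interval −0.86 to 0.20; adjusted p = 0.398). None of the 7 tested genes was called in this comparison, where 6.48% of all tested probes were called higher and 2.99% lower, and none had an unadjusted p under 0.05 in limma. The 3 comparisons share arrays, so they are not independent of each other.

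**Figure D3:**
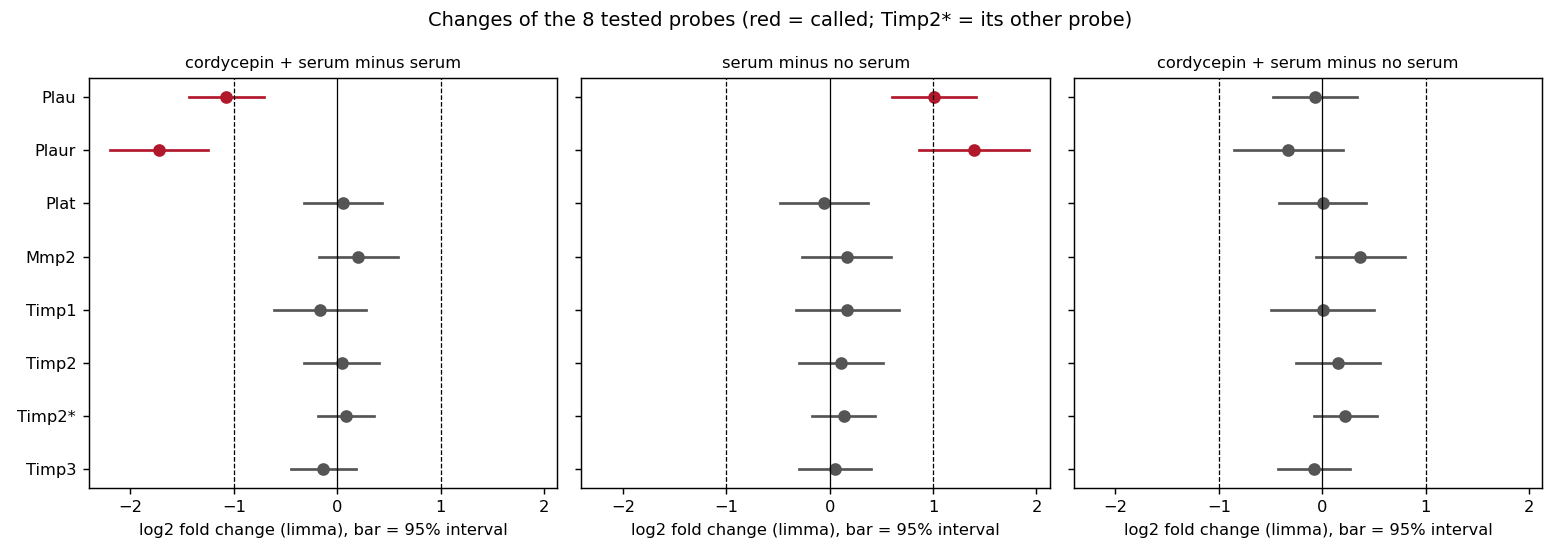
Log2 fold changes of the 8 tested probes (x axis) in the 3 comparisons, with the 95% interval from limma as a bar and the fold threshold as dashed lines; red marks a called difference, and Timp2* the second Timp2 probe. Plau and Plaur lie below −1 with cordycepin and above 1 with serum, and the intervals of the other 6 probes include 0 in all 3 panels.

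Tissue plasminogen activator, the other activator of the system, was not called in any comparison. The Plat level was 2.30, 2.83 and 2.51 with cordycepin, 2.63, 2.39 and 2.45 with serum, and 2.39 and 2.70 without serum, so the 3 groups overlapped. Its log2 fold change with cordycepin was 0.06 (95% interval −0.32 to 0.44; limma, adjusted p = 0.836), an interval that lies within the fold threshold on both sides. With serum it was −0.05 (95% interval −0.48 to 0.37).

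Among 11 genes counted as partners of the plasminogen system, 8 could be tested, and cordycepin raised 1 of them. Of all tested probes, 7.63% were called higher with cordycepin against serum and 6.48% against no serum, so 1 of 8 is near these shares. The called gene was Serpinf2, which encodes alpha-2-antiplasmin, the main inhibitor of plasmin itself. Its levels were −1.75, −2.13 and −3.02 with cordycepin, −3.88, −3.75 and −4.81 with serum, and −6.04 and −5.76 without serum, where it was not well above background. The rise with cordycepin was 1.84 on the log2 scale (SE 0.37; limma, adjusted p = 0.00971). Against the no serum group it was at least 10.2-fold higher with cordycepin (adjusted p = 0.000826), a bound taken from the weakest signals that were well above background on each no serum array. With serum the same bound was 2.83-fold, and the difference from no serum was not called (adjusted p = 0.0905). Normexp background correction was run with an offset of 50 added to each signal, which makes log2 differences of dim spots smaller. How much of the changes below comes from the offset was not tested. With this correction the log2 difference of Serpinf2 with cordycepin was 0.95 from serum, which lost the call. From no serum it was 1.52, which was called (limma, adjusted p = 0.000868) but is smaller than the bound above. The difference of serum from no serum was then 0.57 (limma, adjusted p = 0.58), also smaller than its bound. The remaining 7 tested partners, which include the plasminogen receptor genes Plgrkt and S100a10 and the protease nexin gene Serpine2, lay between −0.16 and 0.32 with cordycepin and were not called. Plg, Serpinb2 and Serpina5 were not well above background on every array of any group and were not tested.

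The metalloproteinases gave 3 different pictures. Mmp2, the gelatinase that fibroblasts make constitutively, had levels of 5.79, 5.60 and 5.55 with cordycepin, 5.38, 5.76 and 5.20 with serum, and 5.14 and 5.42 without serum. The cordycepin and serum arrays overlapped, as did the serum and no serum arrays, while the cordycepin arrays lay above both no serum arrays. The log2 fold change with cordycepin against serum was 0.20 (95% interval −0.18 to 0.59; limma, adjusted p = 0.434). It was 0.16 with serum and 0.37 with cordycepin against no serum (95% interval −0.06 to 0.80; adjusted p = 0.247). Mmp3 stayed at background on all 8 arrays, with levels between −7.80 and −6.97, so no difference is read from it.

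Mmp13, a collagenase, was brighter on every array with cordycepin than on any other array. Its level was −5.36, −4.77 and −4.78 with cordycepin, −7.94, −7.23 and −7.75 with serum, and −8.05 and −7.68 without serum. Replicates 2 and 3 of the cordycepin group were well above background and the other 6 arrays were not. Cordycepin replicate 1 was the dimmest array, and its weakest signal well above background lay at −5.01, against −5.54 and −5.29 on replicates 2 and 3. Since no group had the probe above background on every array, Mmp13 was not tested in the main comparison. Its mean level with cordycepin was 1.37-fold above the weakest signals well above background on the serum arrays, and 1.59-fold above those on the no serum arrays. That mean includes replicate 1, which was not well above background, so these values are not lower bounds. Without the filter on dim probes the measured log2 difference from serum was 2.67 (SE 0.26), and it was called (limma, adjusted p = 0.00104), as were 4.68% of all 55681 probes in that direction. Against no serum it was 2.90 (SE 0.29; adjusted p = 0.00187), where 3.62% of probes were called higher. With normexp background correction and its offset of 50 the log2 difference was 0.63 from serum and 0.79 from no serum. Its size thus depends on how the background of a dim spot is handled, the offset included.

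Mmp13 and Mmp3 lie in a cluster of metalloproteinase genes on chromosome 9. The probes of 10 genes of this cluster, which also holds Mmp12, Mmp1a, Mmp1b, Mmp10, Mmp8, Mmp27, Mmp20 and Mmp7, span positions 7282762 to 7697700 in the mm9 build. Of their 12 probes, 3 were well above background on any array: Mmp13 with cordycepin, and Mmp12 and Mmp8 on 1 no serum array each. Mmp13 was the 1 gene of the cluster called for cordycepin without the filter. Over all 20 other metalloproteinase genes listed, 7 could be tested and 0 were called in limma in any comparison. The shares of all tested probes called in 1 direction ran from 0.849% to 7.63% over the comparisons, so 0 of 7 is near them. In the cordycepin comparison 1 of the 7 had an unadjusted p under 0.05, and in the other comparisons 0, and the 7 log2 fold changes lay between −0.10 and 0.26. Mmp14, the membrane-bound metalloproteinase that activates pro-Mmp2 together with Timp2, was at 0.00 (adjusted p = 0.994).

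The bases before the annotated start of 4 of these genes are shown because AP-1 is a well known regulator of metalloproteinase genes and these genes had unlike signals. Promoters were given by RefSeq (GRCm38.p6) for 6 of the 9 members: Plaur, Mmp3, Mmp13, Timp1, Timp2 and Timp3. The 140 bases up to the start are printed in the direction of transcription. Capitals mark matches, on either strand, to the AP-1 motif TGANTCA, the ETS motif PEA3 (AGGAAG), the GC box GGGCGG and the TATA box TATAAA. Adjoining capitals in Plaur are GC boxes that follow closely on each other.
Plaur (chr7:24462343-24462482, plus strand): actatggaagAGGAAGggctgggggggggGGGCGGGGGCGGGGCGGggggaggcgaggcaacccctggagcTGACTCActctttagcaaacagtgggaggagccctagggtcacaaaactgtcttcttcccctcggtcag
Mmp3 (chr9:7445682-7445821, plus strand): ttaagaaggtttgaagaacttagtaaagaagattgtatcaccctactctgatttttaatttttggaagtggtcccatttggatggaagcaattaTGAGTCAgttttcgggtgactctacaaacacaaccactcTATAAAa
Mmp13 (chr9:7272374-7272513, plus strand): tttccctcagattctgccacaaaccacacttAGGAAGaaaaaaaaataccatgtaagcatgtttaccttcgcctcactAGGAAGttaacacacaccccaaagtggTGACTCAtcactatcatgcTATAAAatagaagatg
Timp1 (chrX:20870026-20870165, plus strand): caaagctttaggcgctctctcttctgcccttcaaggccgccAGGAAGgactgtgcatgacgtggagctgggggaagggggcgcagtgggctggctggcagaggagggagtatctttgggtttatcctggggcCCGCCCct

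An AP-1 match stood in 3 of the 6 promoters (250 bases before to 50 after the start), and in 7.81% of 32851 RefSeq promoters of the same length. Its first base was 69 bases before the start in Plaur, 46 in Mmp3 and 35 in Mmp13, and the heptamer was TGACTCA in Plaur and Mmp13. The 3 genes had unlike signals: Plaur fell with cordycepin, Mmp13 was brighter with it, and Mmp3 was not detected. Mmp3 and Mmp13 also held a TATAAA match, found in 13.6% of promoters, whereas Plaur, Timp1, Timp2 and Timp3 held GGGCGG, found in 35.7%. AGGAAG stood in 5 of the 6, Timp2 being without it, and in 35.4% of promoters. The cyclic AMP response element TGACGTCA was in 0 of the 6 and in 1.79% of promoters. A match is a string of letters and was not tested for binding.

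**Figure D4:**
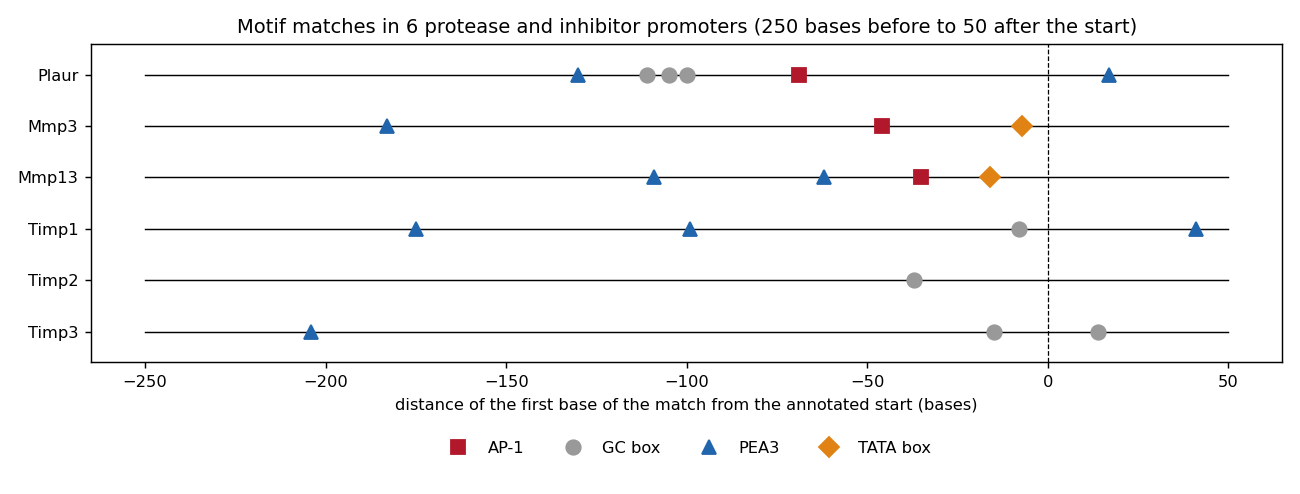
Position of each motif match in the promoters of 6 genes: the x axis is the distance in bases of the first base of the match from the annotated start (dashed line), and each symbol is 1 match on either strand. AP-1 matches (squares) lie in Plaur, Mmp3 and Mmp13 within 69 bases of the start, and GC boxes (circles) in Plaur and the 3 Timp genes.

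The metalloproteinase inhibitors were not called in any comparison. Timp1, an inhibitor that is also a known growth factor target, had levels of 5.53, 5.66 and 5.17 with cordycepin, 5.86, 5.63 and 5.38 with serum, and 5.22 and 5.69 without serum. Timp3, which binds to the extracellular matrix, had levels of 6.37, 6.67 and 6.19 with cordycepin, 6.56, 6.52 and 6.54 with serum, and 6.50 and 6.48 without serum. For both genes the cordycepin and serum arrays overlapped. With cordycepin the log2 fold change of Timp1 was −0.17 (95% interval −0.62 to 0.28; limma, adjusted p = 0.588) and that of Timp3 was −0.13 (95% interval −0.45 to 0.20; adjusted p = 0.53).

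Timp2 was read by probes at positions 2791 and 652 of its transcript, and neither was called in any comparison. The probe at 2791 had levels of 8.70, 8.25 and 8.27 with cordycepin, 8.29, 8.52 and 8.28 with serum, and 8.14 and 8.37 without serum. The probe at 652 had levels of 5.32, 5.17 and 5.18 with cordycepin, 5.06, 5.33 and 5.02 with serum, and 5.0 on both arrays without serum. The no serum arrays overlapped the other groups for the probe at 2791 and lay below all of their arrays for the probe at 652. The log2 fold changes with cordycepin were 0.04 (95% interval −0.32 to 0.40; limma, adjusted p = 0.875) and 0.09 (95% interval −0.18 to 0.36; adjusted p = 0.643). With serum the log2 fold changes of the 4 Timp probes lay between 0.05 and 0.17, and from no serum to cordycepin between −0.08 and 0.22. For the 3 Timp genes the intervals with cordycepin lie within a change of 1 log2 unit in either direction.

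Most other genes of extracellular proteolysis were not called. Of 56 pathway genes in 4 lists (plasminogen partners, other metalloproteinases, ADAM and ADAMTS proteases, other inhibitors and activators), 39 could be tested. Their median log2 fold change with cordycepin was 0.02, beside 0.10 for all tested probes. Serpinf2 was called higher with cordycepin, both against serum and against no serum, and 0 of the 39 were called lower in either comparison or called in the serum comparison, all by limma. The shares of all tested probes called higher and lower were 7.63% and 2.87% for cordycepin against serum, 6.48% and 2.99% against no serum, and 0.849% and 0.878% with serum, so these counts are near those shares or below them. At an unadjusted p under 0.05 in limma, 6 of the 39 were higher and 3 lower with cordycepin than with serum, and 3 were higher and 3 lower than without serum. With serum 1 was higher and 0 were lower at that level.

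**Figure D5:**
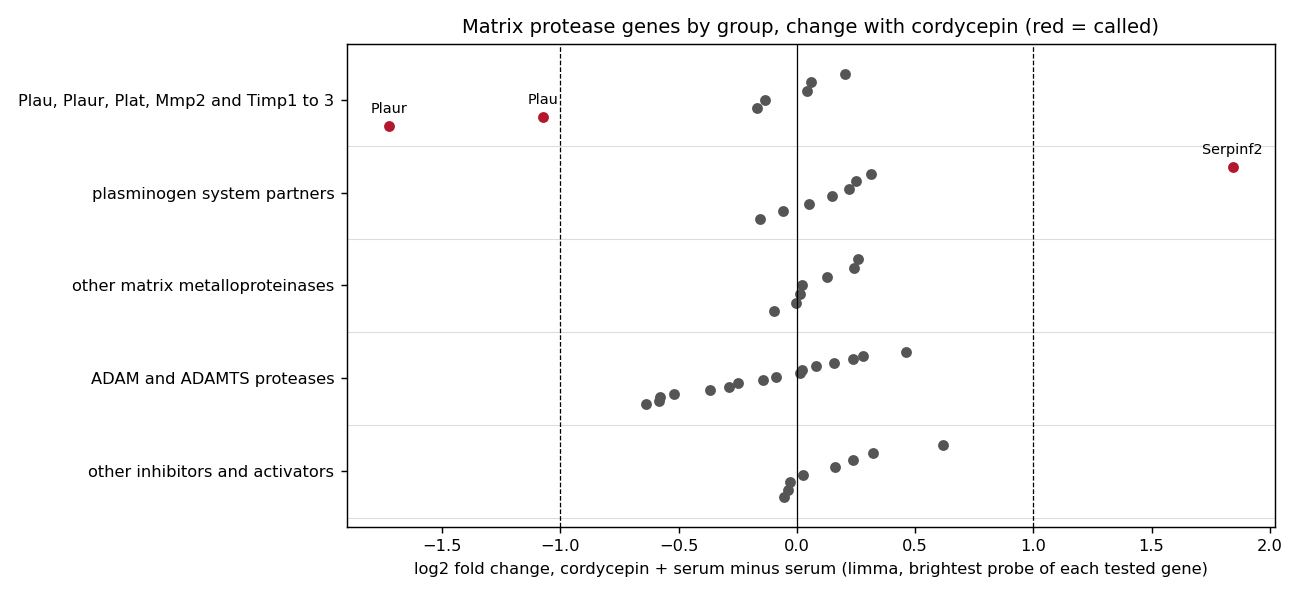
Log2 fold change with cordycepin against serum (x axis, limma) of the brightest probe of each tested gene, in 5 groups (y axis; the vertical spread within a group serves to separate the points). Red marks called genes: Plaur and Plau lie below −1 and Serpinf2 above 1, while the other 43 points lie between the dashed lines.

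By adjusted p alone, without the fold threshold, 5 of the 39 pathway genes passed in the cordycepin comparison, 2 higher and 3 lower, as did 19.4% of all tested probes in either direction. Beside Serpinf2 these were Adam19 (−0.64, adjusted p = 0.00706), Adamts1 (−0.58, adjusted p = 0.0418) and Adamts4 (−0.52, adjusted p = 0.0111), all lower, and the cathepsin K gene Ctsk (0.62, adjusted p = 0.00805), which was higher. Adam19 encodes a sheddase of growth factor precursors, and Adamts1 and Adamts4 encode proteases that cleave aggrecan and versican. The 16 ADAM and ADAMTS genes lay between −0.64 and 0.46 with cordycepin and between −0.10 and 0.34 with serum. Of the other inhibitors and activators, 8 of 9 could be tested, among them Timp4, the membrane inhibitor gene Reck and the proprotein convertase gene Furin, whose log2 fold changes were −0.04, −0.05 and −0.03.

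The genes whose pattern over the 8 arrays was most like that of Plau were Id1 (Pearson r = 0.994), Hbegf (0.991) and Rccd1 (0.988), out of 13421 genes ranked. Plaur stood 13th in this order (r = 0.976). Those most like Plaur were Traf5 (r = 0.989), Ankrd1 (0.984) and Dlx2 (0.983), with Plau at place 11. Mmp2, Plat and the Timp genes had r between −0.16 and 0.53 with the pair. Id1 encodes an inhibitor of helix-loop-helix factors and Hbegf a ligand of the EGF receptor. These correlations describe 8 arrays in 3 groups, where the group differences make up most of the variation.

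Markers of other cell types were read as well. Of 5 macrophage markers on the array, 3 were well above background on every array. The summed relative signal of the 5 was 27.2 to 34.6 with cordycepin, 15.1 to 17.3 with serum and 14.0 to 18.7 without serum. Cd68, a lysosomal protein gene, was called higher with cordycepin (log2 fold change 3.04, SE 0.21; limma, adjusted p = 5.18e-05). Itgam (0.63; limma, adjusted p = 0.0219) and Csf1r (0.52; limma, adjusted p = 0.0741) were also higher but were not called. Ptprc and Lyz2 were not tested, each being well above background on 1 or 2 arrays of a group. The summed signal of 5 epithelial markers was 0.0618 to 0.0883 with cordycepin, 0.058 to 0.062 with serum and 0.0576 to 0.0888 without serum, with Cdh1, Krt18 and Krt19 below background on every array. That of 4 endothelial markers was 5.48 to 6.28, 4.93 to 6.93 and 5.40 to 6.29, with Cdh5 below background on every array. In bulk RNA, a change in the number of cells of a type and a change in RNA per cell cannot be told apart. The part of these markers in the results above was not tested.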

How the data were processed

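The deposited intensity values are the Agilent scanner output of 8 1-colour arrays; per the file headers the authors extracted them with Feature Extraction 10.7.3.1, with background subtraction and a spatial detrend, and probe positions are in mm9. The study's methods name limma and no normalisation. The 8 arrays shared 1 slide and 1 scan, so no batch could be tested. Each held 62976 spots, 3671 of them controls; 0 non-control spots were saturated.

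The 75th percentile of log2 processed signal over non-control spots was subtracted, outlier spots were dropped and spots of a probe averaged. A probe was tested if well above background (more than 0.5 of its spots) on every array of at least 1 group. Groups came from the labels, and the submitters describe independent triplicates. limma 3.58.1 in R 4.3.3 fitted 1 mean per group over all 8 arrays, with two-sided p-values. The calculation was tested on simulated data. Alternatives (12, and the omission of each array) are given in the closing section. Lists took the brightest probe per gene. Named were the 9 members with every probe, the pathway genes called or past the adjusted p, and the 3 genes most like Plau and Plaur. Members, lists and tests were chosen with earlier results of these data known. One listed gene is not reported here and is in no count of the lists. Promoters came from a RefSeq table. Annotations of exons and UTRs were not used here. The macrophage marker Emr1 has no probe under that name. The number of arrays limits the precision.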

Additional observations from a re-analysis of the deposited data

How the results depend on the processing

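Over the 12 alternatives that kept all arrays of a comparison, Plaur was called lower with cordycepin in 12 (log2 fold change −1.79 to −1.68) and Plau in 11 (−1.14 to −1.02); leaving out 1 array in turn gave −1.92 to −1.53 for Plaur and −1.17 to −0.95 for Plau. The 2 genes of the set called lower with cordycepin became 1 with spike-in centring and 1 to 2 when 1 array was left out. The count called higher became 1 (Mmp13) without the filter on dim probes, in the cordycepin comparison and against no serum, and was 0 to 1 over the omissions in both: it was 1 without cordycepin replicate 1, where Mmp13 passed the filter through the cordycepin group alone, the serum and no serum arrays being at background, so that this count is no added support. With serum, the 2 higher genes became 1 with normexp correction, quantile normalisation or the array row as a block, and 0 with spike-in centring, without the filter, or with only the 2 groups compared; over the omissions the count was 0 to 2. Of the pathway genes, 1 higher with cordycepin became 0 with normexp correction or when all 8 arrays had to be above background (Serpinf2), and 2 with no minimum fold change; 0 lower became 3 with no minimum fold change. Against no serum, 1 higher became 0 with the filter over all 8 arrays and 3 with no minimum fold change, and 0 lower became 1. With serum, 0 higher became 1 (Serpinf2) with an intensity trend in the spread or the replicate block, and was 0 to 1 over the omissions. The count lower was 0 to 2 over the omissions with serum and against no serum: without no serum replicate 1 these were Mmp12 and Serping1, and without no serum replicate 2 Serpina5 and Mmp8, each resting on 1 remaining no serum array assumed to vary like the others. The cause was not tested.

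The replicate block changed no call of Plau or Plaur: with serum they were 1.10 and 1.49 (limma, adjusted p = 0.0307 for both). Same-numbered cordycepin and serum arrays had correlated deviations of −0.000332, −0.175 and 0.144, too few values to decide pairing by number. Over all probes, spike-in centring moved the median serum change to −0.36 and the median difference of cordycepin from no serum to −0.33. The share of calls that were rises with cordycepin was 72.7%, and 60.4% with quantile normalisation or 61.7% with the filter over all 8 arrays; with serum it was 49.2%, and 74.3% with normexp correction, 27.0% with spike-in centring, 60.2% without the filter, 63.0% with the filter over all 8 arrays and 29.8% without no serum replicate 1. Taking the percentile over probes in place of spots, an alternative chosen after seeing the data, changed none of these calls. Signals near background limit Mmp3, Mmp13 and Serpinf2, and no serum rests on 2 arrays.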
